A study of Mus musculus with 7 samples.

Results

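Plasma cells were compared with plasmablasts, both sorted from mouse spleen at day 3 after lipopolysaccharide (LPS), a bacterial cell wall component that drives B cells to divide and secrete antibody. The comparison uses 5 of the 7 expression arrays of the series, chosen by their labels: 2 plasma cell arrays and 3 plasmablast arrays. Genes were kept if a probe was above background, at a detection p under 0.01, on at least 2 of these 5 arrays, which left 7142 of the 16593 genes with a named probe. The study measured expression, and DNA methylation that was not analysed here, along B cell differentiation, starting from naive B cells (the 2 remaining arrays). Plasma cells were gated as B220low CD138+ and plasmablasts as B220mid CD138+. CD138 is the surface proteoglycan of antibody-secreting cells and B220 the B cell form of CD45. Naive B cells were gated as B220+ CD43- from mice without LPS. All mice were C57Bl/6J, labelled female and 10 weeks old, and the labels name no engineered allele. The gates name no marker that removes myeloid cells. The labels give replicate numbers but not the animals behind them, so the p-values cover the spread among these arrays, which may be technical.

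A plasmablast is an antibody-secreting cell that still divides, and a plasma cell is its successor that has left the cycle. On this path Irf4 and Blimp-1, the product of Prdm1, shut down the B cell program, and Xbp1 builds up the endoplasmic reticulum (ER) that folds antibody. Cells that leave the cycle lose transcripts of the mitotic and replication machinery, while macrophages, monocytes and neutrophils of the spleen respond to LPS with a transcript program of their own.

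Of 25697 probes, 38.6 and 38.5% exceeded background on the plasma cell arrays and 34.3 to 35.8% on the plasmablast arrays. Over the tested probes Pearson's r was 0.9932 between the plasma cell arrays, 0.9938 to 0.9946 between plasmablast arrays and at most 0.8099 across the groups. All values are log2 signals after background correction and quantile normalization of the 5 arrays, and differences are plasma cell minus plasmablast. limma called 75.1% of 10233 probes at a Benjamini-Hochberg adjusted p under 0.05, and 74.8% of 7142 genes. Of the genes, 28.9% were higher and 45.9% lower in plasma cells. At least 2-fold, 25.3% changed, 13.4% higher and 11.8% lower, with genes below background counted at their limit, as in all counts of 2-fold changes here. The median gene differed by -0.23. Cyclic loess normalization moved that median to 0.08 and the share of higher calls among called probes to 57.1%, against 37.8% with quantile normalization. Shifting each array so that its genes of ER folding and secretory traffic have the same mean, an alternative chosen after seeing the data and called scaling on secretory genes, moved the median to 0.57. List medians are therefore also given relative to the median of all genes.

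**Figure D1:**
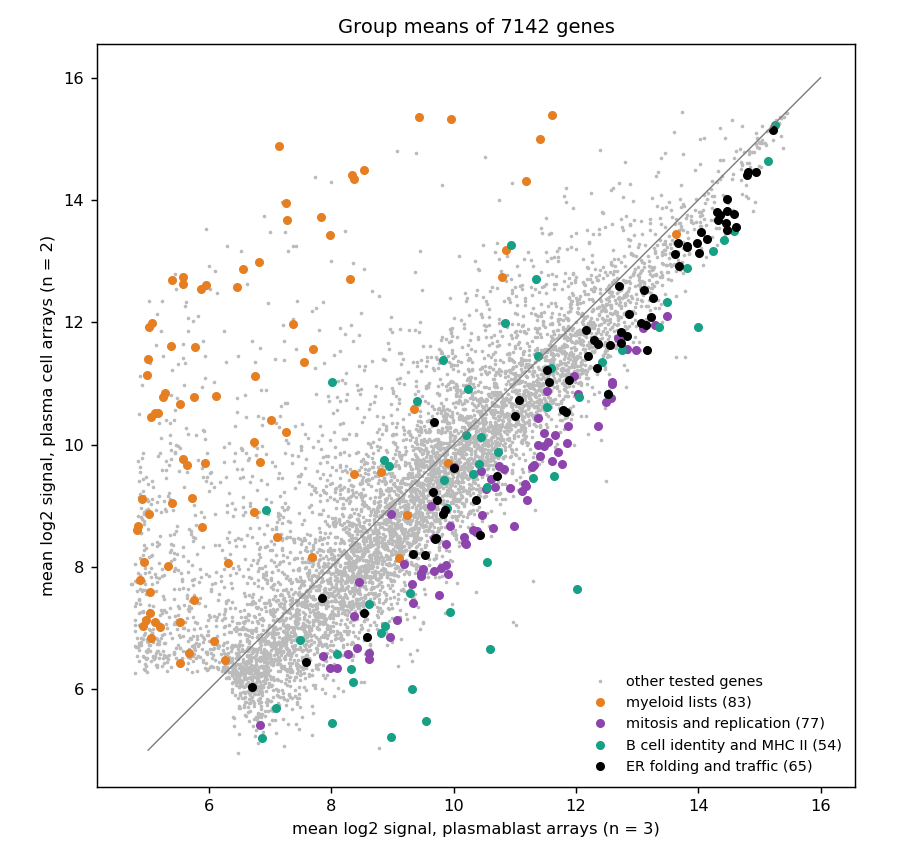
Mean log2 signal of each of 7142 genes on the 2 plasma cell arrays (vertical axis) against the 3 plasmablast arrays (horizontal axis), with 4 groups of genes in colour and the line of equal signal. Most myeloid genes lie above the line, at up to 7.75 log2 units, while mitosis and replication genes lie below it.

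The transcripts that mark antibody-secreting cells went partly against the order that the labels imply. Prdm1 stood at 7.15 and 7.51 on the plasma cell arrays, against 8.89, 8.91 and 9.15 on the plasmablast arrays. It was 3.15-fold lower in plasma cells (log2 difference -1.65, SE 0.14, adjusted p = 4.47e-05), and the groups did not overlap, as for 83.9% of all tested genes. Irf4 stood at 12.13 and 12.05 in plasma cells, against 13.54, 13.47 and 13.49 in plasmablasts, 2.66-fold lower (-1.41, SE 0.09, adjusted p = 1.08e-05). Prdm1 ranged from -1.85 to -0.85 over the alternatives and Irf4 from -1.55 to -0.61. Sdc1, the gene of CD138, had 9.80 and 9.43 in plasma cells and 9.62, 9.40 and 9.70 in plasmablasts. These values overlapped (0.04, adjusted p = 0.812), but Sdc1 was called higher, by 0.84 (adjusted p = 0.000648), when arrays were scaled on secretory genes. Xbp1 stood at 15.05 and 14.92 in plasma cells and at 15.27, 15.22 and 15.16 in plasmablasts (-0.23, adjusted p = 0.0588). Under the alternatives Xbp1 ranged from -0.74, with 75th percentile scaling (adjusted p = 0.000873), to 0.57, with scaling on secretory genes. The gene of B220, Ptprc, was higher in plasma cells by 0.88 (adjusted p = 0.00241). Which forms of CD45 its probe reads was not examined, so it does not check the gate. On these grounds the groups are called plasma cell and plasmablast arrays by their labels alone.

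Myeloid transcripts were far higher on the plasma cell arrays, with the largest list medians of all 19 gene lists. The lists were chosen with earlier results of these data known, so their ranking and counts are descriptions and no test. Lyz2, the lysozyme of macrophages and granulocytes, stood at 15.31 and 15.33 on the plasma cell arrays, against 10.44, 9.57 and 9.86 on the plasmablast arrays, 41.2-fold higher (5.37, SE 0.23, adjusted p = 1.72e-06). Hp, the acute phase protein haptoglobin that neutrophils and monocytes also make, had 14.87 and 14.91 in plasma cells and 7.17, 7.28 and 6.97 in plasmablasts. Its difference of 7.75 was the largest fitted rise of all tested genes. Among genes shared by myeloid cells, 37 of 47 listed genes were tested, and 37 rose and 0 fell, 31 of them at least 2-fold. Their median was 3.86, or 4.09 relative to all genes. Cd300ld, an activating receptor of myeloid cells, had 12.62 and 12.77 in plasma cells and lay below background on all plasmablast arrays, so it was at least 67.5-fold higher. The receptor gene Sirpb1a was at least 69.7-fold higher, Pilrb1 at least 41.1-fold and Tlr13, an endosomal sensor of bacterial RNA, at least 39.5-fold. Of the 37 genes, 20 lay below background on every plasmablast array and so were tested only because the plasma cell arrays were above it. With no filter on dim probes 39 of 41 rose, with a median of 3.80.

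The rise covered genes typical of more than one myeloid cell type. In the neutrophil list 19 of 22 tested genes rose and 0 fell (39 listed). The list's median was 3.52, or 3.74 relative to all genes, and 2.23 with genes below background set at their limit. Of the 22 genes, 12 were below background on every plasmablast array and entered through the plasma cell arrays alone. With no filter 20 of 36 rose, with a median of 1.48. Chil3, a chitinase-like protein, was at least 63.5-fold higher, Trem3 71.7-fold and the formyl peptide receptor gene Fpr2 66.8-fold. S100a8 and S100a9, abundant calcium-binding proteins of neutrophils, had differences of 1.96 and 0.73, and the S100a9 difference did not pass. In the monocyte and macrophage list 20 of 24 tested genes rose and 1 fell (37 listed), with a median of 3.78, or 3.00 with such genes at their limit. Here 13 of the 24 entered in the same way, and with no filter 22 of 34 rose, with a median of 2.07. Cx3cr1, the fractalkine receptor of patrolling monocytes, had 12.38 and 12.76 in plasma cells and 6.87, 6.20 and 6.27 in plasmablasts. The Fc receptor gene Fcgr4 was 63.0-fold higher, Ifitm6 at least 64.1-fold and the chemokine gene Ccl9 at least 61.0-fold. Mrc1, the macrophage mannose receptor, was the 1 that fell, by 0.96 on the log2 scale, which did not pass when arrays were scaled on secretory genes (-0.15). Of all tested genes 4.05% were at least 2-fold higher and below background on every plasmablast array.

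Summed over the 83 tested genes of the 3 myeloid lists, signal was 476685 and 481010 on the plasma cell arrays, against 37612, 32708 and 39970 on the plasmablast arrays. That is 3.42 and 3.44% of the signal of all tested genes in plasma cells and 0.271, 0.235 and 0.287% in plasmablasts. Among defining markers, Cebpa, Csf3r, Adgre1, C1qa and Itgax were above background on both plasma cell arrays and on 0 plasmablast arrays, whereas Lyz2, Tyrobp, S100a8 and S100a9 were above background on all 5. Camp, a neutrophil granule gene, was above background on 0 plasma cell arrays and 1 plasmablast array. Cybb, Flt3, Siglech, Mcpt8 and Cpa3 were above background on 0 of the 5 arrays, as were the neutrophil genes Ngp, Elane, Mmp8, Mmp9 and Cxcr2. The same held for the ER folding gene Canx and the cyclin genes Ccna2 and Ccnb2. A probe below background, here and in the results that follow, therefore does not show that a transcript is absent. Spi1, which encodes the myeloid and B cell factor PU.1, had 11.29 and 11.39 in plasma cells, against 7.39, 7.68 and 7.57 in plasmablasts. Cebpb, a factor of activated macrophages, was higher by 3.57. In bulk arrays, fewer cells of a type and less RNA per cell cannot be told apart. The part of myeloid RNA in the results that follow was not tested.

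Promoters of the myeloid genes were read for the letters GAGGAAGT, a core that PU.1 is known to bind, from 250 bases before to 50 bases after the start site on both strands. Sequences are RefSeq's on build GRCm38.p6. The letters were in 3 of 27 shared myeloid promoters (11.1%), 3 of 18 neutrophil promoters (16.7%) and 3 of 19 monocyte and macrophage promoters (15.8%). Each share rests on few promoters and is not particular to myeloid genes. The highest share of any list was 23.5%, in 4 of 17 promoters of B cell receptor signalling genes. ER folding promoters had the letters in 0 of 18. They were in 4.08% of 5904 tested promoters and in 3.69% of 27025 promoters of all genes. The windows of a shared and a monocyte gene are shown because both genes were among the highest rises of their lists. Capitals mark GAGGAAGT or its reverse complement, and both windows run along the gene's strand.
Cd300ld, chr11:114989970-114990049, minus strand: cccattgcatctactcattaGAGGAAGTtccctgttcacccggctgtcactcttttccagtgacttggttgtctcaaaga
Fcgr4, chr1:171018846-171018925, plus strand: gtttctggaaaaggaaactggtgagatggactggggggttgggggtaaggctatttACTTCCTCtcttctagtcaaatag

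Transcripts of cell division fell almost as a whole. Cdk1, the kinase that starts mitosis, stood at 9.89 and 9.49 on the plasma cell arrays, against 11.93, 11.59 and 11.78 on the plasmablast arrays, 4.22-fold lower (-2.08, SE 0.15, adjusted p = 2.23e-05). In the mitosis list 35 of 36 tested genes fell, 34 of them at least 2-fold, and 0 rose. The list held 68 genes, 55 of them with a named probe, and with no filter on dim probes 39 of the 55 fell. Their median was -1.80, or -1.57 relative to all genes, and Espl1, the separase gene, was the 1 that did not pass (-0.11). Aurka, a kinase of the spindle poles, had 8.87 and 8.47 in plasma cells and 10.94, 10.93 and 11.06 in plasmablasts, 4.95-fold lower. The polo kinase gene Plk1 was 4.33-fold lower, Cep55, which acts in the final cut between daughter cells, 4.36-fold, and the condensin gene Ncapg2 4.31-fold. In plasma cells 35 of the 36 were above background on at least 1 array, the exception being Melk, at least 1.51-fold lower, named after its values were seen.

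**Figure D2:**
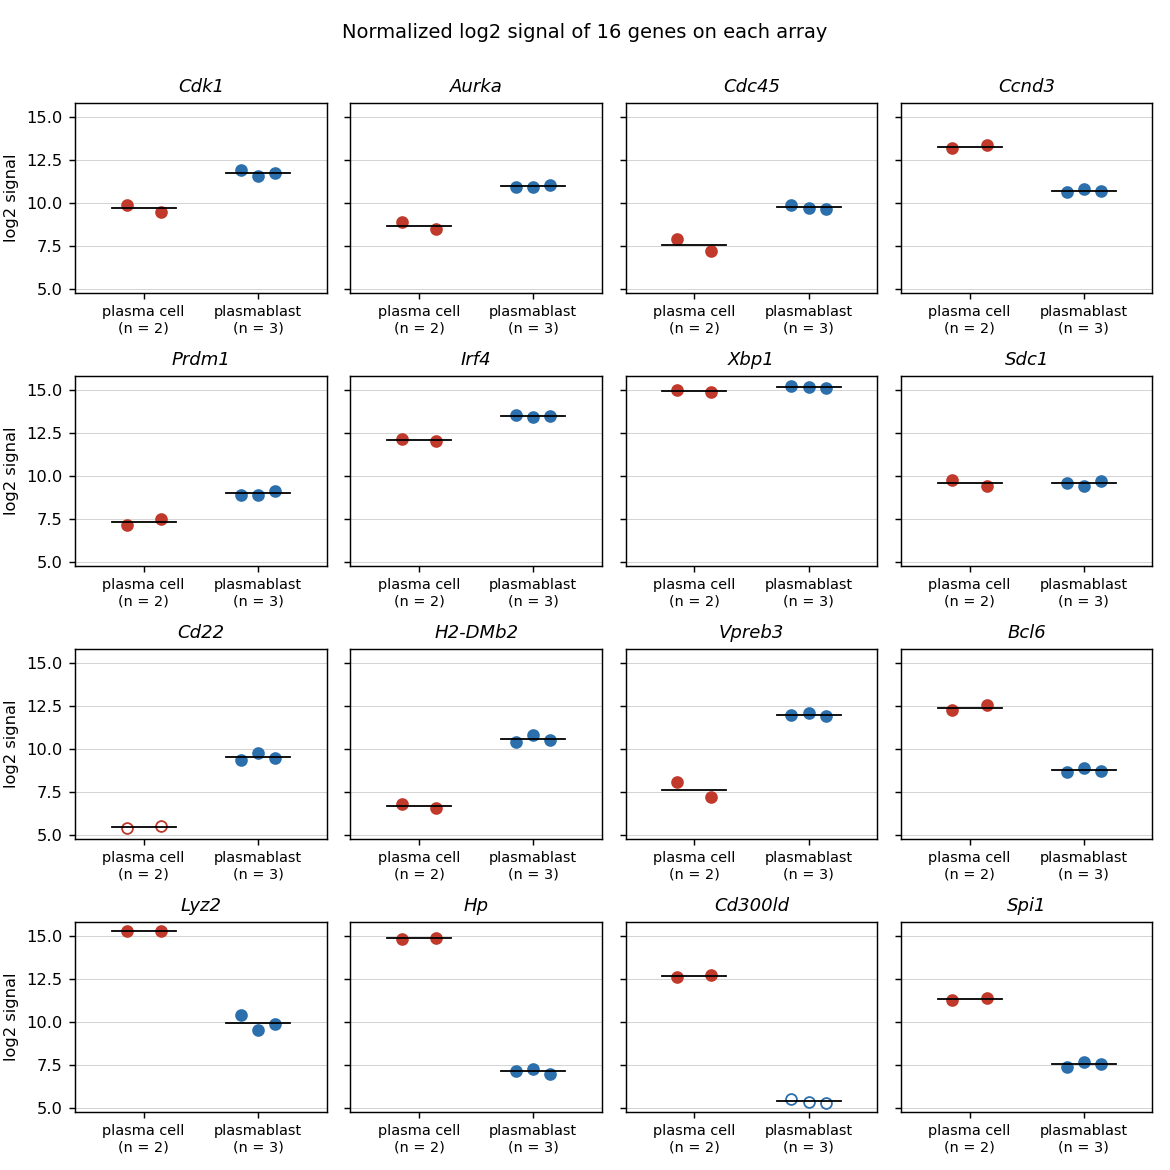
Normalized log2 signal of 16 genes, each point 1 array, with plasma cell arrays (red, n = 2) left of plasmablast arrays (blue, n = 3) and bars at group means. Open points mark genes below background on every array of that group; Cdk1, Aurka and Cdc45 are lower and Lyz2, Hp, Cd300ld and Spi1 higher in plasma cells with no overlap, while Sdc1 overlaps.

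Many mitosis promoters hold a short element near the start site. The letters TTTGAA, the core of the cell cycle genes homology region that binds complexes with Foxm1 and Mybl2, were in 23 of 30 mitosis promoters (76.7%), against 14.3% of tested and 20.2% of all promoters. They lay within 40 bases of the start site in 21 genes. In replication promoters they were in 6 of 35 (17.1%). TTTCCCGC, a core of E2F sites, was in 14.3% of replication promoters, 3.33% of mitosis promoters and 2.42% of tested promoters. A match describes the letters and does not show binding. The 3 windows below belong to genes with some of the largest falls, and capitals mark TTTGAA or its reverse complement.
Cdk1, chr10:69352913-69352992, minus strand: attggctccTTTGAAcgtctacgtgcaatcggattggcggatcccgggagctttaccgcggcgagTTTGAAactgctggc
Ncapg2, chr12:116405356-116405435, plus strand: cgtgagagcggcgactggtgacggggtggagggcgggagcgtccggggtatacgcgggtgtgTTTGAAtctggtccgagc
Cep55, chr19:38054961-38055040, plus strand: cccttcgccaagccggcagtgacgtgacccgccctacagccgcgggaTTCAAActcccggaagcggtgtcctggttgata

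Replication genes fell with the mitosis genes and by less. All 41 tested genes of 55 listed fell, 33 of them at least 2-fold, with a median of -1.39, or -1.16 relative to all genes. Cdc45, part of the helicase that opens the fork, had 7.88 and 7.20 in plasma cells and 9.91, 9.71 and 9.67 in plasmablasts, 4.68-fold lower. The helicase subunit gene Mcm3 was 4.07-fold lower, the checkpoint mediator gene Clspn 4.02-fold and Rrm2, which supplies deoxynucleotides, 3.55-fold. The weakest difference in the list was -0.38. Cyclic loess left 40 of the 41 called lower. Scaling on secretory genes left 32.

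Genes that control entry into the cycle moved both ways, with 15 of 29 tested genes lower, 6 higher and 8 not called (42 listed). That is 51.7% lower and 20.7% higher, against 45.9% and 28.9% of all genes. Their median of -0.34, against -0.23 for all genes, turned to 0.46 when arrays were scaled on secretory genes. Cyclin genes moved both ways: Ccne2, which acts at the start of replication, was 5.19-fold lower, whereas Ccnd3 was 5.98-fold higher. Ccnd3 had 13.19 and 13.39 in plasma cells and 10.63, 10.82 and 10.69 in plasmablasts. Ccnd2 fell by 1.04 on the log2 scale, a call lost when arrays were scaled on secretory genes, and Ccnd1 rose 2.49-fold. Among inhibitors of cyclin-dependent kinases, Cdkn1a (p21) rose 3.99-fold and Cdkn2d rose 2.48-fold. Cdkn2c (p18), by contrast, was 3.33-fold lower, at 9.25 and 8.96 in plasma cells and 10.97, 10.52 and 11.04 in plasmablasts. Cdkn1b (p27) had a difference of 0.52 (adjusted p = 0.183). Foxm1 and Mybl2, which drive mitotic genes, were 2.86-fold and 3.19-fold lower. Myc was below background on all 5 arrays, and Mki67 was not analysed here.

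B cell identity genes were mostly lower in plasma cells. Of 40 tested genes (51 listed) 32 fell (80%, against 45.9% of all genes), 20 of them at least 2-fold, and 7 rose (17.5%, against 28.9%). Their median was -1.13, or -0.90 relative to all genes, and 5 lay below background on both plasma cell arrays. Vpreb3, a chaperone of the immature receptor, had 8.06 and 7.20 in plasma cells and 12.00, 12.12 and 11.91 in plasmablasts, the largest fitted fall of all tested genes at 20.8-fold. Cd22, an inhibitory receptor, was at least 9.89-fold lower, Fcer2a (CD23) at least 6.65-fold and the B cell factor gene Spib at least 3.44-fold. Cd83 was 6.36-fold and Ebf1, a founding factor of the B lineage, 2.87-fold lower. The coactivator gene Pou2af1 fell by 1.09 and Irf8 fell by 0.85. Irf8 did not pass when arrays were scaled on secretory genes (-0.04). Pax5 was below background on all 5 arrays.

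Some B cell genes that rose are known to be made by other leukocytes too. Klf2, a quiescence and migration factor of lymphocytes, had 13.19 and 13.35 in plasma cells and 10.81, 11.29 and 10.73 in plasmablasts. The costimulatory gene Cd86 rose 3.99-fold, Ltb 2.47-fold and Pou2f2 2.23-fold. Bcl6, the germinal center repressor that opposes Prdm1, stood at 12.28 and 12.57 in plasma cells, against 8.65, 8.91 and 8.75 in plasmablasts, 12.6-fold higher (3.65, SE 0.13, adjusted p = 5.89e-07). These rises lay on the arrays with the high myeloid signal, and their source was not tested.

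MHC class II presentation moved both ways. Of 15 tested genes (18 listed) 10 fell and 3 rose, or 66.7% and 20%, against 45.9% and 28.9% of all genes. The list's median was -1.07, or -0.84 relative to all genes. H2-DMb2, a peptide loading chain, had 6.77 and 6.53 in plasma cells and 10.40, 10.83 and 10.54 in plasmablasts, 15.3-fold lower. H2-Oa and H2-Ob, chains of a complex that restrains peptide loading in B cells, were at least 8.46-fold and 4.42-fold lower. The transactivator gene Ciita was 3.57-fold lower. The 3 that rose were Marchf1 (8.12-fold), a ligase that removes class II from the surface, the protease gene Ctss (2.94-fold) and Ifi30 (2.55-fold).

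Signalling genes downstream of the B cell receptor were higher in 13 of 21 tested genes and lower in 5 (24 listed). That is 61.9% higher and 23.8% lower, against 28.9% and 45.9% of all genes. The list's median was 0.64, or 0.86 relative to all genes. The B cell adaptor gene Blnk was 3.24-fold lower, the kinase gene Blk 2.83-fold and Rasgrp3 3.31-fold. Syk fell by 0.62. It did not pass when plasma cell replicate 2 was left out (-0.49, adjusted p = 0.108) or after cyclic loess (-0.28, with an adjusted p of 0.213). Phosphatase genes rose: Ptpn6 (SHP-1), also abundant in myeloid cells, was 3.81-fold higher and Ptprj at least 1.89-fold. The adaptor gene Gab1 was at least 2.02-fold and Pik3ap1 2.43-fold higher.

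**Figure D3:**
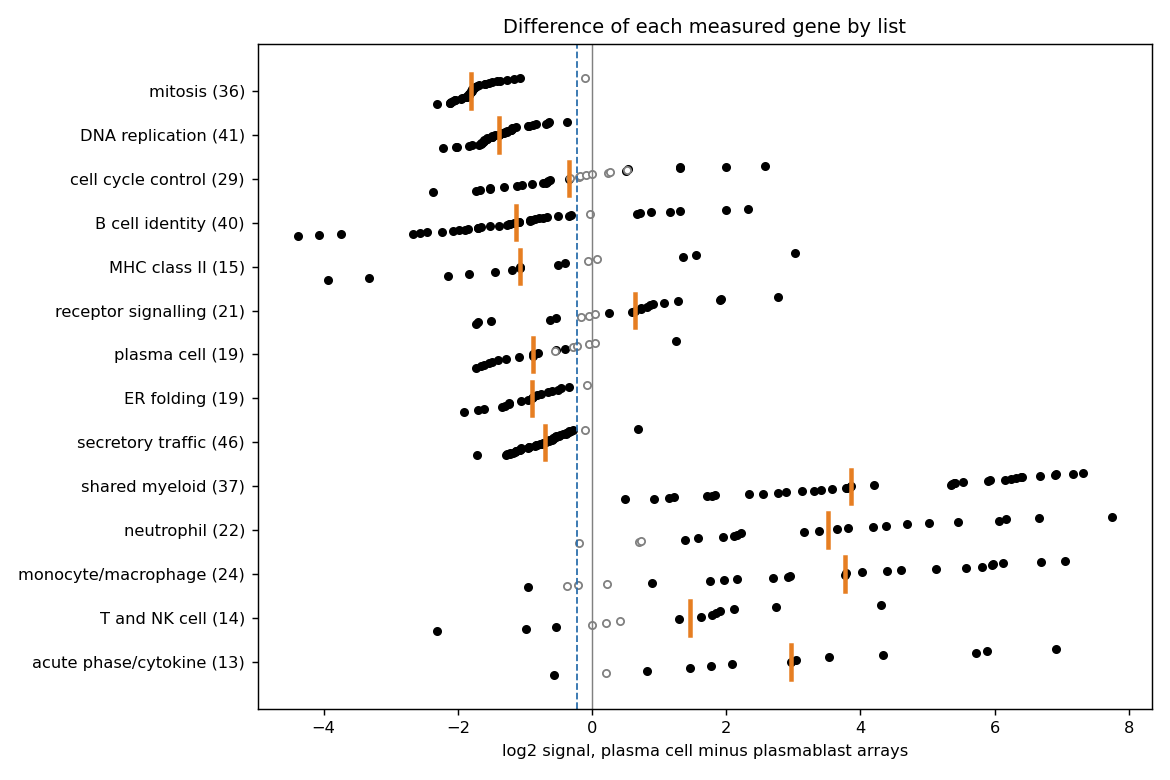
Log2 difference, plasma cell minus plasmablast arrays, of each tested gene in 14 lists (number of genes in brackets). Filled points passed the test and open points did not; orange bars are list medians and the dashed line is the median of all genes at -0.23, with mitosis at -1.80 and shared myeloid genes at 3.86.

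Most of the tested plasma cell genes were lower on the plasma cell arrays. Of 19 tested genes (26 listed) 13 fell, 1 rose and 5 did not pass, with a median of -0.88, or -0.65 relative to all genes. That is 68.4% lower and 5.26% higher, against 45.9% and 28.9% of all genes. Lax1, an adaptor that dampens receptor signals, was 3.31-fold lower, Derl3, which exports misfolded protein from the ER, 3.06-fold and Slamf7 2.89-fold. Derl3 had 10.50 and 10.44 in plasma cells and 12.07, 12.14 and 12.04 in plasmablasts. The survival receptor gene Tnfrsf17 (BCMA) had a difference of -0.28 (adjusted p = 0.109) and Jchain, which joins IgM and IgA, one of -0.56 (adjusted p = 0.0677). Cd9 was the 1 that rose, 2.37-fold. These counts and members depend on the scaling. With 75th percentile scaling 17 fell, Xbp1 and Jchain (-0.61, adjusted p = 0.0406) among them. When arrays were scaled on secretory genes, 7 fell and 7 rose, with rises of Xbp1 (0.57, adjusted p = 0.00131), Sdc1 (0.84) and Tnfrsf17 (0.52, adjusted p = 0.00959), and Jchain stood at 0.25.

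With quantile normalization the secretory machinery was lower in nearly all tested genes, with medians nearer to 0 than that of mitosis. In ER folding 18 of 19 tested genes fell and 0 rose (28 listed), with a median of -0.90, or -0.67 relative to all genes. That is 94.7% lower, against 45.9% of all genes. Hyou1, a chaperone, had 8.72 and 8.33 in plasma cells and 10.38, 10.43 and 10.50 in plasmablasts, 3.77-fold lower. The oxidase gene Ero1b was 3.25-fold lower, the lectin chaperone gene Calr 3.06-fold and Hspa5 (BiP) 2.52-fold. In secretory traffic 44 of 46 tested genes fell and 1 rose (54 listed), or 95.7% lower and 2.17% higher. The list's median was -0.71, or -0.48 relative to all genes, and turned to 0.10 when arrays were scaled on secretory genes. The coat genes Sec23a and Sec24d were 3.29-fold and 2.40-fold lower, Kdelr3, which returns ER proteins, 2.44-fold and Srp68, of the signal recognition particle, 2.34-fold. The coat gene Sec24b was 1.61-fold higher. Under cyclic loess 29 of the 46 fell and 2 rose.

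ER folding promoters hold an element of the stress response of the ER. The element, CCAAT followed by CCACG after 9 bases of any kind (19 letters, both strands), was in 8 of 18 ER folding promoters (44.4%), in 0.186% of tested promoters and in 0.137% of all. The 8 were among 11 tested genes with it. Each match also counts as CCAAT, which was in 94.4% of ER folding and 44.2% of tested promoters. The windows below belong to 3 of the ER folding genes named above, with the element or its reverse complement in capitals.
Hspa5, chr2:34772010-34772089, plus strand: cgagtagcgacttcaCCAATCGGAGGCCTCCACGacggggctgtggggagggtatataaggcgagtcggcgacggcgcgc
Calr, chr8:84847034-84847113, minus strand: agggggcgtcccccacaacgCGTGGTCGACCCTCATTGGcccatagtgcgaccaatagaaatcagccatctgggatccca
Ero1b, chr13:12565662-12565741, plus strand: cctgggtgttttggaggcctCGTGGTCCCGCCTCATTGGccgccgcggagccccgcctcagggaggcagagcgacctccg

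Each list's mean was also taken relative to the mean of the 65 ER folding and secretory traffic genes of the same array. Whether these genes track a shift common to antibody-secreting cells was not tested. These 65 genes had a median difference of -0.75 and ranged from -1.91 to 0.69. Relative to them mitosis genes stood at -2.61 and -2.79 on the plasma cell arrays, against -1.76, -1.78 and -1.80 on the plasmablast arrays, a further difference of -0.92. Of the 36 mitosis genes, 35 fell by more than the median secretory gene. The median of all tested genes was -0.23, and their share below the secretory median was not counted. Counts against that median therefore have no baseline here. DNA replication stood at -1.95 and -2.12 in plasma cells and -1.40, -1.46 and -1.55 in plasmablasts, with 37 of 41 genes below the secretory median. The groups did not overlap for either list.

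B cell and plasma cell genes were less distinct on this scale. B cell identity stood at -2.03 and -1.90 in plasma cells and -1.83, -1.52 and -1.72 in plasmablasts, a difference of -0.27 with 27 of 40 genes below the secretory median. Plasma cell genes stood at -0.80 and -0.75 in plasma cells and -0.81, -0.83 and -0.69 in plasmablasts, and the groups overlapped (0.01). MHC class II overlapped too (0.07). Shared myeloid genes stood at -0.33 and -0.24 in plasma cells and -5.32, -5.37 and -5.39 in plasmablasts. When arrays were scaled on secretory genes, 35 mitosis genes fell and 1 rose, and 32 replication genes fell and 1 rose. Of B cell genes 19 fell and 10 rose, and of shared myeloid genes 37 rose and 0 fell.

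The gap between the 2 plasma cell arrays was wider in cycle genes than in myeloid genes, as a description with no test. Replicate 1 was above replicate 2 for 32 of 36 mitosis genes, with a median gap of 0.27, and for 35 of 41 replication genes, with a median gap of 0.21. It was above replicate 2 for 16 of 37 shared myeloid genes, with a median gap of -0.03, and for 13 of 40 B cell genes, with a median gap of -0.11. Over all 7142 tested genes replicate 2 was above replicate 1 for 3674, with a median gap of -0.01. The shared myeloid genes were thus near all genes.

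**Figure D4:**
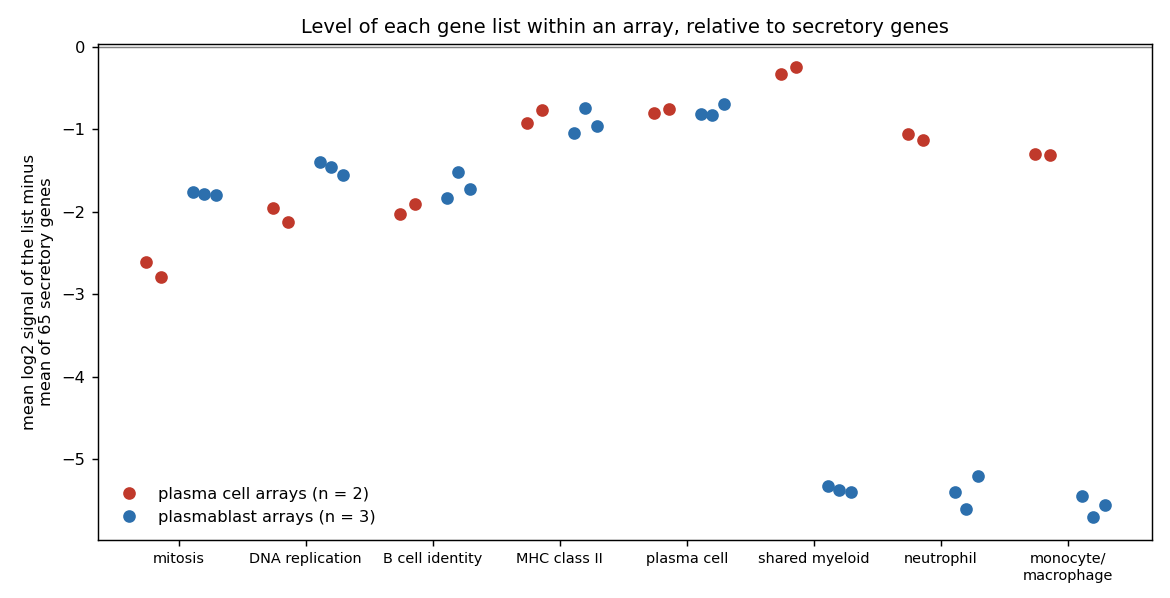
Mean log2 signal of 8 gene lists relative to the mean of 65 secretory genes of the same array, 1 point per array, with plasma cell arrays (red, n = 2) left of plasmablast arrays (blue, n = 3). Mitosis stands at -2.61 and -2.79 against -1.76 to -1.80, plasma cell genes overlap, and shared myeloid genes stand at -0.33 and -0.24 against -5.32 to -5.39.

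Against naive B cells, in a fit of all 7 arrays, the counts of myeloid genes higher and lower differed between the lists. Shared myeloid genes were higher on the plasma cell arrays for 35 of 37 and lower for 0, and neutrophil genes were higher for 21 of 22. In that fit 32.9% of 7425 genes were higher and 37.5% lower. Hp, read here by another of its probes, the brightest over the 7 arrays, had 14.38 and 14.49 in plasma cells. It was at least 241-fold above naive B cells, where it was below background. The granulocyte receptor gene Csf3r was at least 19.6-fold higher. Of 29 monocyte and macrophage genes, 14 were higher and 13 lower. Among those lower, Cd163, Vcam1, Mertk, Timd4 and Fcna passed this fit's filter, at least 2 of the 7 arrays, only through the naive B cell arrays. Others, such as Hp, Csf3r and Chil3, were below background on both naive B cell arrays and passed through the other arrays. The counts of each list therefore depend partly on which arrays let its genes in. The complement gene C1qc, made by resident macrophages, averaged 8.07 in plasma cells and 12.25 in naive B cells, a log2 difference of -4.18. Slc40a1, the iron exporter of red pulp macrophages, had a difference of -4.49. Other monocyte and macrophage genes did not share this fall. Cx3cr1 was higher by 6.26, Ccl9 by 4.16 and Hmox1 by 0.95. Adgre1 (0.57, adjusted p = 0.0699) and Spic (-0.52, adjusted p = 0.108) did not pass. These genes were named after their values were seen.

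Markers of other cells were fewer and moved less evenly. In the T and NK cell list 8 of 14 tested genes rose, 3 fell and 3 did not pass (26 listed). That is 57.1% higher and 21.4% lower, against 28.9% and 45.9% of all genes. The list's median was 1.46, or 1.69 relative to all genes, and 0.31 with genes below background at their limit. With no filter on dim probes 8 of 23 rose and 2 fell, with a median of 0.00. Il7r, the interleukin 7 receptor of T cells, was at least 12.1-fold higher, Thy1 6.71-fold and Zap70, a T cell receptor kinase, at least 2.54-fold. Thy1 was above background on all 5 arrays and Cd3e on the plasma cell arrays alone. Cd2 was 4.95-fold lower and the perforin gene Prf1 1.97-fold lower. Prf1 did not pass once plasma cell replicate 1 was left out, and it was not the only lower call of the list lost in that fit. Ncr1, Alas2, Pf4 and Itga2b, which mark NK cells, red cell precursors and platelets, were above background on 0 of the 5 arrays. Of dendritic cell genes, 3 of 4 tested rose and 1 fell (12 listed), led by Batf3 (at least 2.56-fold higher). With no filter 5 of 12 rose. The 1 that fell was Bst2 (-0.70, adjusted p = 0.0459), named after its values were seen. That call was lost under cyclic loess, scaling on secretory genes, trended robust moderation and no filter, and without either plasma cell replicate or without plasmablast replicate 1 or 2. Of mast cell, basophil and eosinophil genes, 2 of 12 were tested, of which Il5ra fell by 0.62. Of red cell and platelet genes, 2 of 23 were tested, and both rose, Car2 at least 2.02-fold and Klf1 at least 1.06-fold.

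Inflammatory genes rose with the myeloid lists, in 11 of 13 tested acute phase and cytokine genes (22 listed). The list's median was 2.96, or 3.19 relative to all genes, and 2.08 with bounded genes at their limit. With no filter 13 of 22 rose and 1 fell, with a median of 0.71. Il1b, the inflammasome cytokine, had 13.28 and 13.22 in plasma cells and 7.33, 7.05 and 7.72 in plasmablasts, 59.0-fold higher. The acute phase gene Saa3 was 52.8-fold higher, the feedback inhibitor gene Socs3 20.3-fold and the stress gene Nupr1 at least 78.6-fold. Il10 was 1.49-fold lower. In glycolysis and hypoxia 8 of 17 tested genes rose and 5 fell (23 listed). That is 47.1% higher and 29.4% lower, against 28.9% and 45.9% of all genes. Hk3, a hexokinase of myeloid cells, was at least 13.3-fold and the lactate exporter gene Slc16a3 at least 5.46-fold higher. Hk2, another hexokinase, fell by 0.68, which did not pass when plasma cell replicate 2 was left out (adjusted p = 0.0513). Without plasma cell replicate 1 only 4 genes of glycolysis and hypoxia rose and 4 fell, and without plasmablast replicate 2 these were 5 and 4. With 75th percentile scaling 5 rose and 6 fell, under cyclic loess 10 and 2, and with scaling on secretory genes 13 and 0. Of 11 tested genes of sorting stress 3 rose and 3 fell, 27.3% each way, so the share that rose was near that of all genes. The number lower was 1 without plasma cell replicate 1, 0 under cyclic loess or scaling on secretory genes, and 6 without plasmablast replicate 3 or with the replicate block. Ier3 was higher by 2.52, and Egr1 was 1.96-fold lower. Egr1 did not pass once plasma cell replicate 1 was left out (adjusted p = 0.119).

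Other genes stood among the largest fitted differences. The 10 rises and 10 falls were ranked by fitted difference, which counts signal below background, so the folds given as limits follow another order. Beyond those described, the rises held the lectin receptor gene Clec4a1 (at least 120-fold), the glycosyltransferase gene Gcnt2 (at least 71.6-fold), Rpl3l (at least 52.9-fold), the coagulation factor gene F10 (at least 52.8-fold), Emilin2 (at least 60.4-fold) and Ear10 (at least 45.6-fold). Ear10 belongs to a ribonuclease family with near-identical copies, so its probe may read relatives. The falls also held the sulfotransferase gene Chst3 (15.7-fold), the kinase gene Srpk3 (at least 5.86-fold) and the desaturase gene Scd1 (8.52-fold). Chst3 had 6.82 and 7.27 in plasma cells and 10.86, 11.32 and 10.89 in plasmablasts. Speer1 (14.6-fold) and Speer3 (11.6-fold) belong to a multicopy family and are uncertain in the same way. Scd1, which makes monounsaturated fatty acids, had 9.26 and 9.54 in plasma cells and 12.53, 12.52 and 12.42 in plasmablasts.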

How the data were processed

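Expression of 5 samples was read on Illumina MouseRef-8 single-colour arrays on 1 BeadChip, per the labels. Signals were exported with GenomeStudio 2011.1, per the submitters' processing notes. The scanner table the authors deposited gives an intensity and a detection p-value per probe and array, with no normalization between arrays. The authors' second deposited table gives an intensity quantile normalized between arrays; quantile normalizing the scanner values came within 0.0119 log2 units of it, and it served as an alternative.

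In R 4.3.3 with limma 3.58.1, neqc corrected background from the detection p-values (offset 16), quantile normalized the 5 arrays and took log2. Probes with a detection p under 0.01 on at least 2 arrays entered lmFit and eBayes (10233 probes; 3 residual and 4.02 prior degrees of freedom). Adjusted p-values are Benjamini-Hochberg values over these probes. A gene is represented by its brightest probe. Symbols came from GEO's platform annotation and were updated through Entrez numbers; 23978 probes had 1 gene and 1719 none. Of 7142 tested genes, 1837 had several tested probes and 62 had another probe called the opposite way. A fold is given as "at least" where the dimmer group was below background throughout, and then runs to the background limit of its arrays. With 2 arrays against 3, an exact permutation test of 1 gene cannot go below p = 0.1. The number of arrays limits precision, and arrays of the groups lay in separate positions of the BeadChip.

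Members and the 19 gene lists (621 genes, 553 with a named probe, 411 tested) were chosen with earlier results of these data known. Named genes are the 10 largest fitted rises and falls among called genes without overlap, up to 4 called members per direction of each list, listed regulators and defining markers. Alternatives were other normalizations, offsets, filters, variance moderation, the replicate number as a block, all 7 arrays, and each array left out in turn. The fit was also run on simulated data in which few probes changed, unlike here, so that run does not check these calls.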

Additional observations from a re-analysis of the deposited data

How the results depend on the processing

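Under the other normalizations, filters and fits and without any 1 array, 34 to 39 mitosis genes and 40 to 43 replication genes fell and 37 to 39 shared myeloid genes rose. The upper ends are from no filter on dim probes, which tests more genes: 39 of 55, 43 of 49 and 39 of 41. The main fit tested 36, 41 and 37. Cdk1, Prdm1, Irf4 and Lyz2 kept their calls under all these alternatives and under the scaling on secretory genes described next. Cdk1 lay between -2.28 and -1.28, Prdm1 between -1.85 and -0.85, Irf4 between -1.55 and -0.61 and Lyz2 between 5.03 and 6.17. Of 126 other named genes, 103 kept their direction and side of the threshold throughout, 18 lost a call under at least 1 alternative and 5 gained one. By fitted difference the probes called at least 2-fold lower numbered 1347, but 666 under cyclic loess and 608 with the authors' normalized values, and secretory traffic genes lower numbered 29 of 46 under cyclic loess. Scaling on secretory genes, an alternative chosen after seeing the data, makes the mean of the secretory genes equal by construction. The probes called at least 2-fold higher then numbered 3220 (1629 otherwise) and those lower 170, with 86.2% of calls higher. Genes lower then numbered 19 for B cell identity, 5 for MHC class II, 7 for plasma cell, 8 for ER folding and 12 for secretory traffic. In the same order, genes higher under this scaling numbered 10, 6, 7, 4 and 15. It also turned Xbp1 to 0.57, Tnfrsf17 to 0.52, E2f1 to 0.46, Syk to 0.18, Bst2 to 0.10, Il5ra to 0.18, Cd8b1 to 0.27, Il10 to 0.23, Vegfa to 0.10, Hk2 to 0.12, Pfkp to 0.21, Zfp36 to 0.37 and Jund to 0.42. With no detection filter 32.3% of all probes were called. With the replicate block 7561 probes were called, against 7682, and 0 named genes lost their call; same-numbered arrays had deviations correlated at 0.164 and 0.085 over 2 pairs, so the numbers are not taken as pairs. Leaving out 1 array in turn left 67.4 to 72% of probes called. Dim probes near background limit the folds given as "at least", and saturation was not examined.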
